A study of Mus musculus with 16 samples.

Results

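Neurons of the deep cortical layers were followed through 10 genes that mark or set their identity, of the 20841 genes in the deposited table. The genes were taken by symbol: Fezf2, Bcl11b, Sox5, Tle4, Ldb2, Crym, Etv1, Ntsr1, Rprm and Tshz2. All 10 were in the table and all 10 passed the filter on low values at both ages, which asked for at least 1 CPM (reads of a gene scaled to the library total) in at least 4 libraries. The samples were right-hemisphere cortex of mice at postnatal day 0 (P0) or day 7 (P7), either control or conditional knockout (cKO) for Foxp1, a transcription factor gene that was removed in the forebrain, with 4 libraries in each of the 4 groups. The labels name neither the Cre driver nor the alleles that the controls carried, and do not say whether each library was a separate animal, so that p-values measure the spread between libraries. The P0 and P7 libraries were sequenced on different instruments with different read lengths, so that age and platform cannot be told apart.

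Many deep-layer projection neurons send axons out of the cortex. Layer 5 subcerebral neurons reach the brainstem and spinal cord, layer 6 corticothalamic neurons reach the thalamus, and near-projecting neurons of layers 5 and 6 stay local. Their identities are set by transcription factors that act against each other: Fezf2 and Bcl11b (also called Ctip2) favour the subcerebral fate, Sox5 times the production of the corticofugal types, and Tle4 is a Groucho corepressor kept by corticothalamic neurons. Foxp1 is a forkhead factor made by cortical projection neurons and by striatal neurons.

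Upstream sequence is shown for the 4 genes whose level was called different between genotypes at P0 or at P7. It is RefSeq sequence of build GRCm38.p6, read 5′ to 3′ on the strand of the gene, taken from before the RefSeq start and holding no base of a GENCODE exon, with CpG dinucleotides in capitals. GENCODE also starts Fezf2 transcripts farther upstream, so the Fezf2 stretch lies inside the GENCODE gene, between annotated exons. The Fezf2 stretch was cut to 156 bases at an exon and does not reach the RefSeq start. The RefSeq start of Tshz2 lies upstream of its GENCODE start, chr2:169633013, so the Tshz2 stretch does not reach the GENCODE gene. The Ntsr1 stretch is chr2:180499726-180499975 on the plus strand, the Rprm stretch chr2:54085553-54085802 on the minus strand, the Fezf2 stretch chr14:12345960-12346115 on the minus strand and the Tshz2 stretch chr2:169632259-169632508 on the plus strand.
Ntsr1: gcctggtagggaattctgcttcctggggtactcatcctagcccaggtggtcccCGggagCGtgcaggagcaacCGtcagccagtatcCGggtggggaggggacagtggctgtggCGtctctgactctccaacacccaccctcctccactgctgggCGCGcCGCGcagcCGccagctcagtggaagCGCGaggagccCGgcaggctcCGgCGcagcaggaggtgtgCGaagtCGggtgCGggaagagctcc
Rprm: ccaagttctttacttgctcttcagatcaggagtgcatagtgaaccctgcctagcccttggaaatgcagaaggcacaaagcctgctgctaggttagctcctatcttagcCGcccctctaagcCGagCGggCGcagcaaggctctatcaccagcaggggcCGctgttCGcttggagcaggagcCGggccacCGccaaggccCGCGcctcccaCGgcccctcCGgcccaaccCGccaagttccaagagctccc
Fezf2: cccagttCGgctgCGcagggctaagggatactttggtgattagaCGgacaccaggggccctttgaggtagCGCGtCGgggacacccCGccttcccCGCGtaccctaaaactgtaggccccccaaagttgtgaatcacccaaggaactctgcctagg
Tshz2: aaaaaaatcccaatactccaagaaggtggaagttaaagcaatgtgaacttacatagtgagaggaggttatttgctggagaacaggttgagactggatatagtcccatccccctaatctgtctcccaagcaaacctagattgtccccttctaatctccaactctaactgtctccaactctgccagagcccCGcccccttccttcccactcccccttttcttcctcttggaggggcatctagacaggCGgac

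In the RefSeq windows of 250 bases before to 50 after the start, those of Ntsr1, Rprm and Fezf2 held 23, 19 and 20 CpG dinucleotides, and their GC content was 68.0%, 63.3% and 61.3%. Tshz2 held 2 CpG at 52.0% GC. Over 32851 mouse promoter windows of the same length the median was 7 CpG (quartiles 3 and 20) and 52.7% GC (quartiles 45.7% and 61.7%). The forkhead motif TGTTTAC, searched on both strands with its reverse complement GTAAACA, was in 3.65% of these windows, its variant TATTTAC (reverse complement GTAAATA) in 3.04% and either in 6.54%. Windows were available for 8 of the 10 genes, and 0 of the 8 held either motif.

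The targeted gene checked the labels. Foxp1 averaged 325.6 ± 38.3 CPM in P0 controls and 160.7 ± 21.3 CPM in P0 cKO cortex (SD, n = 4 each), and 444.0 ± 73.3 against 217.3 ± 38.4 CPM at P7. The cKO level was 49.3% of control at P0 and 48.9% at P7 without overlap, with an exact permutation p of 0.0286 at each age, the smallest that 4 libraries against 4 allow. The 5 cortex markers were detected in every group, and no hindbrain or spinal cord gene of a list of 9 exceeded 0.501 CPM in any library. The P0 libraries held 17957490 to 18232943 reads in all and the P7 libraries 9858296 to 15335738. The 10 genes were covered by 325 to 4783 reads per library at P0 and by 182 to 4343 at P7. P0 control libraries 2 and 6 stood apart on the first principal component, which held 46.5% of the P0 variance, at 38.1 and 19.5 against -17.9 to -0.4 in the other 6. Results at P0 are therefore also given without both libraries where a call changed.

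At P0, 2 of the 10 deep-layer genes were called higher in cKO cortex and 0 lower. The layer 6 receptor gene Ntsr1 stood at 1.44 times and the zinc finger gene Tshz2 at 2.32 times the control level. Rprm, also a layer 6 marker, averaged 78.8% of control without a call, and the levels of the other 7 genes, among them the corticothalamic gene Tle4, overlapped between genotypes. Calls rest on limma with p-values adjusted over all genes tested after Benjamini-Hochberg, at a threshold of 0.05. Of all 12580 genes tested at P0, 0.254% were called, with 0.183% higher and 0.0715% lower in cKO. These were 23 genes higher and 9 lower, a split that was 182 and 247 with DESeq2, 95 and 79 with striatal markers as a covariate and 65 and 59 with array weights. The cKO and control values of 3 members did not overlap (Ntsr1, Rprm and Tshz2), which held for 9.86% of all genes. In whole cortex, fewer cells of a type and less RNA per cell cannot be told apart.

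Tshz2 encodes a teashirt zinc finger protein and marks near-projecting neurons of the mature mouse cortex. Tshz2 stood at 48.1, 67.4, 84.1 and 56.9 CPM in the P0 controls. Newborn cKO cortex gave 181.8, 121.7, 121.5 and 170.8 CPM. Every cKO library lay above every control, and the cKO values fell into a higher pair, libraries 3 and 8, and a lower pair, libraries 4 and 7. The means were 64.1 ± 15.5 and 149.0 ± 31.9 CPM, a log2 fold change of 1.21 (SE 0.17, adjusted p = 0.012), the tenth smallest p of the comparison. The call was lost without cKO library 3 (adjusted p = 0.0698), without cKO library 8 (adjusted p = 0.0706) and with no filter (adjusted p = 0.0737), while the log2 fold change stayed between 1.08 and 1.35 under every alternative. Tshz2 lies at chr2:169633013-170071816 on the plus strand (GRCm38). Of its transcript stretches of 50 bases, 65.6% are shared in sequence with the opposite-strand long noncoding RNA genes Gm26883 and A630075F10Rik, so without strand information their reads cannot be told apart from those of Tshz2.

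Ntsr1 encodes a neurotensin receptor and marks corticothalamic neurons of layer 6. Its P0 control values were 79.6, 70.04, 66.8 and 77.0 CPM. Newborn cKO cortex gave 115.9, 99.8, 106.7 and 99.6 CPM. The lowest cKO library lay above the highest control. The means were 73.4 ± 5.96 and 105.5 ± 7.69 CPM, a log2 fold change of 0.52 (SE 0.09, adjusted p = 0.040). The call was lost under 7 of 22 alternatives. Leaving out control library 6 or any of the 4 cKO libraries raised the adjusted p to between 0.0557 and 0.244, with the log2 fold change between 0.47 and 0.54, and it was 0.0737 with no filter and 0.0558 with glutamatergic scaling.

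Rprm encodes reprimo, a small membrane glycoprotein known as a mediator of cell cycle arrest, and marks layer 6 neurons. It held 100.6, 100.8, 111.9 and 91.8 CPM in the P0 controls and 76.4, 84.8, 79.7 and 78.2 CPM in newborn cKO cortex. The groups did not overlap, with cKO below. The means were 101.3 ± 8.25 and 79.8 ± 3.60 CPM, a log2 difference of -0.34 (SE 0.09) that missed the threshold (adjusted p = 0.12). Without control libraries 2 and 6 the difference was -0.41 and passed it (adjusted p = 0.0425). Rprm was called under 4 of 22 alternatives in all, and its adjusted p reached 0.40 without cKO library 3.

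The subcerebral determinants were not called at P0. Fezf2 held 158.4, 90.8, 118.8 and 92.0 CPM in controls and 131.5, 116.2, 105.1 and 123.4 CPM in cKO cortex. The controls spread on both sides of the cKO range, and the log2 difference of 0.08 had a 95% interval from -0.25 to 0.42. It was -0.21 without control libraries 2 and 6. Bcl11b held 248.0, 197.3, 253.3 and 246.4 CPM in controls and 219.8, 208.5, 187.2 and 223.1 CPM in cKO. Of the 4 Bcl11b control values 3 lay above all cKO values and 1, library 2, lay among them, and the log2 difference was -0.17 (interval -0.38 to 0.04, adjusted p = 0.36).

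The other P0 members overlapped between genotypes too. Sox5 ran from 220.4 to 262.3 CPM in controls and from 189.4 to 248.6 CPM in cKO (log2 difference -0.14, interval -0.35 to 0.07). Tle4 spread more widely in controls (152.0 to 239.4 CPM) than in cKO (168.8 to 179.3 CPM), with a log2 difference of -0.15 (interval -0.40 to 0.10). Ldb2, a LIM-domain binding cofactor of layer 5 neurons, differed by 0.03 (interval -0.21 to 0.26), and Crym, a thyroid hormone-binding crystallin of subcerebral neurons, by 0.22 (interval -0.13 to 0.56). Etv1, an ETS factor of layer 5 also called Er81, held 36.0, 41.9, 42.99 and 45.8 CPM in controls and 36.4, 36.8, 35.3 and 36.2 CPM in cKO. Its cKO values sat at the lowest control, with a log2 difference of -0.19 (interval -0.42 to 0.03, adjusted p = 0.34). The median over the 10 members was -0.05 against 0.01 over all genes tested.

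**Figure D1:**
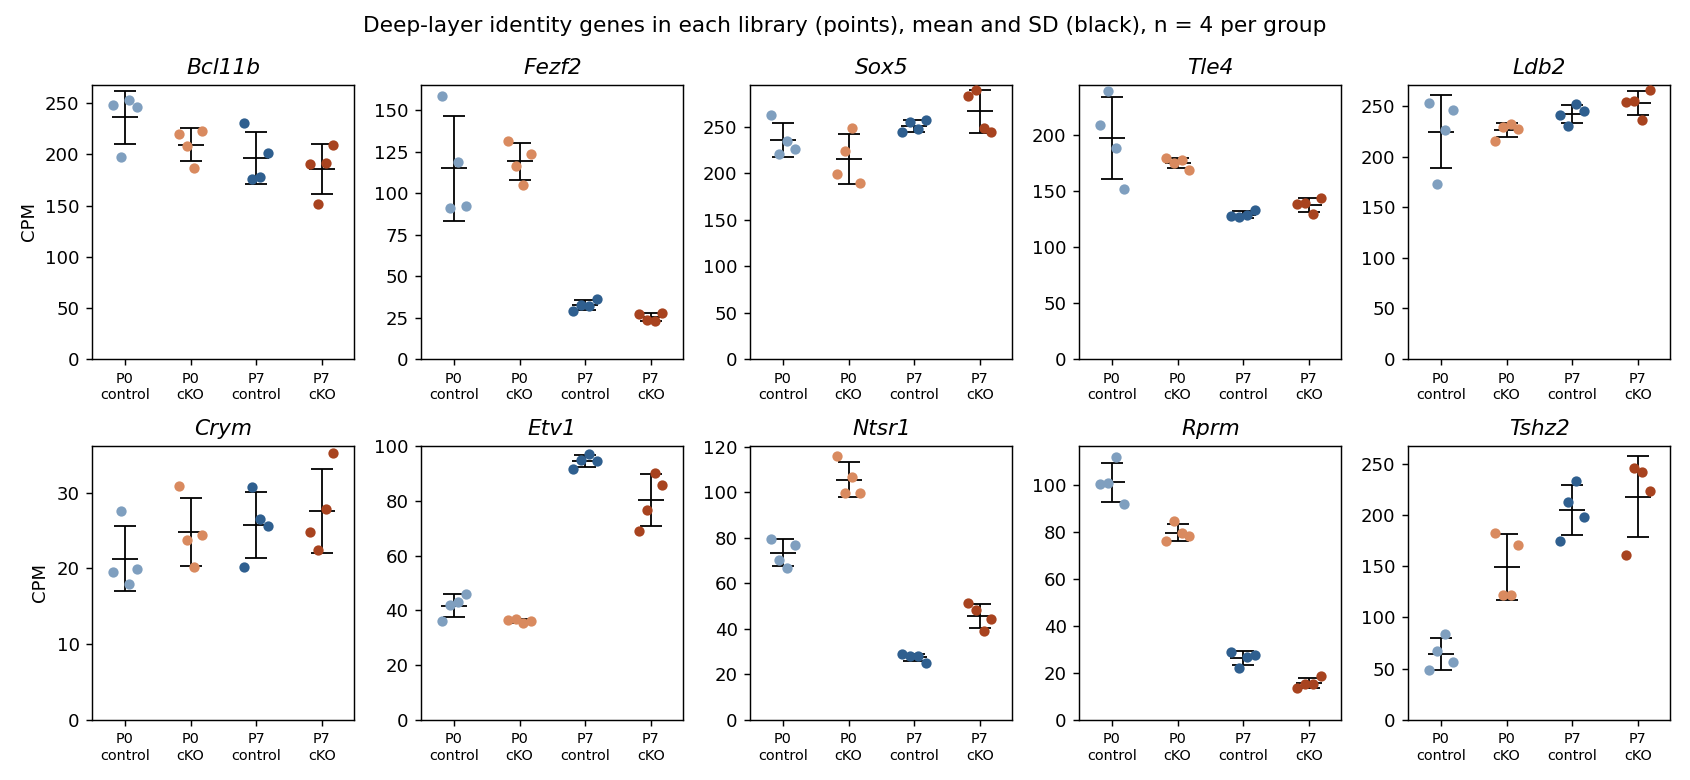
CPM (y axis, from 0) of each of the 10 deep-layer genes in each library, by age and genotype (x axis), with 1 point per library and the mean and SD in black (n = 4 per group). The cKO points of Ntsr1 lie above control and those of Rprm below control at both ages, and those of Tshz2 lie above control at P0 and among the controls at P7.

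At P7, 3 of the 10 genes were called: Ntsr1 was higher in cKO cortex, at 1.66 times control, and Rprm and Fezf2 were lower, at 59.9% and 77.8% of control. Of all 12828 genes tested at P7, 3.72% were called, 1.67% higher and 2.05% lower. These were 214 genes higher and 263 lower, and 155 higher and 303 lower when libraries were scaled by medians of ratios, with Fezf2, Ntsr1 and Rprm called under both. The values of 4 members did not overlap between genotypes (Ntsr1, Rprm, Fezf2 and Etv1), which held for 8.88% of all genes. The direction of Ntsr1 and of Rprm was that of P0.

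Ntsr1 held 28.8, 28.1, 27.9 and 25.04 CPM in the P7 controls and 51.5, 48.03, 39.0 and 44.2 CPM in P7 cKO cortex. The controls lay close together and every cKO library lay above them. The means were 27.5 ± 1.66 and 45.7 ± 5.38 CPM, a log2 fold change of 0.71 (SE 0.09, adjusted p = 0.000214). The gene was called under all 21 alternatives, at a log2 fold change between 0.65 and 0.78. Ntsr1 lies at chr2:180499976-180544980 on the plus strand.

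Rprm held 28.7, 22, 26.6 and 27.7 CPM in the P7 controls and 13.5, 15.4, 15.4 and 18.5 CPM in P7 cKO cortex. The highest cKO value lay below the lowest control. The means were 26.2 ± 2.97 and 15.7 ± 2.05 CPM, and Rprm fell by 0.71 on the log2 scale (SE 0.11, adjusted p = 0.00127). This call too was made under all 21 alternatives, between -0.78 and -0.64. Rprm lies at chr2:54084093-54085552 on the minus strand and overlaps no other annotated gene.

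Fezf2 held 29.0, 32.8, 31.8 and 36.3 CPM in the P7 controls and 27.2, 23.3, 22.8 and 27.8 CPM in P7 cKO cortex. The groups did not overlap, and the highest cKO library came close to the lowest control. The means were 32.5 ± 3.03 and 25.3 ± 2.60 CPM, and Fezf2 fell by 0.35 on the log2 scale (SE 0.09, adjusted p = 0.0465). The call was lost under 9 of 21 alternatives, among them the striatal marker level as a covariate (adjusted p = 0.17) and leaving out any of control libraries 45, 46 and 47 and cKO libraries 42 and 44 (adjusted p from 0.0978 to 0.156). The log2 difference lay between -0.40 and -0.30 over these alternatives. Fezf2 lies at chr14:12342094-12348189 on the minus strand.

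Etv1 held 91.8, 94.9, 97.0 and 94.5 CPM in the P7 controls and 69.0, 76.5, 90.3 and 85.7 CPM in cKO. Its controls were tight and its cKO values were scattered below them. The log2 difference of -0.24 (SE 0.07) missed the threshold (adjusted p = 0.10) and passed it without cKO library 44 (adjusted p = 0.028). Etv1 was called under 2 of 21 alternatives in all, and its adjusted p reached 0.44 with glutamatergic scaling. Etv1 transcripts share 9.1% of their 50-base stretches with other genes, and 0.66% with genes of the table. For Sox5 these shares were 9.0% and 0.15%. The effect of shared stretches on the counts, also of those shared with genes outside the table, was not tested.

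The remaining P7 members overlapped between genotypes. Bcl11b held 230.4, 176.2, 177.5 and 201.0 CPM in controls and 190.3, 151.6, 191.8 and 209.1 CPM in cKO. The groups overlapped, with 1 cKO library below every control and 1 control above every cKO library, and the log2 difference was -0.08 (interval -0.28 to 0.12). Sox5 differed by 0.08 (interval -0.04 to 0.21), Tle4 by 0.09 (interval -0.01 to 0.20), Ldb2 by 0.06 (interval -0.04 to 0.17) and Crym by 0.09 (interval -0.20 to 0.38). Tshz2 held 174.8, 212.5, 233.3 and 197.5 CPM in controls and 160.5, 245.2, 241.8 and 223.2 CPM in cKO. The lowest and the highest of its 8 P7 values were both cKO libraries, with a log2 difference of 0.08 (interval -0.17 to 0.32, adjusted p = 0.84). The median over the 10 members was 0.07 against 0.03 over all genes tested.

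**Figure D2:**
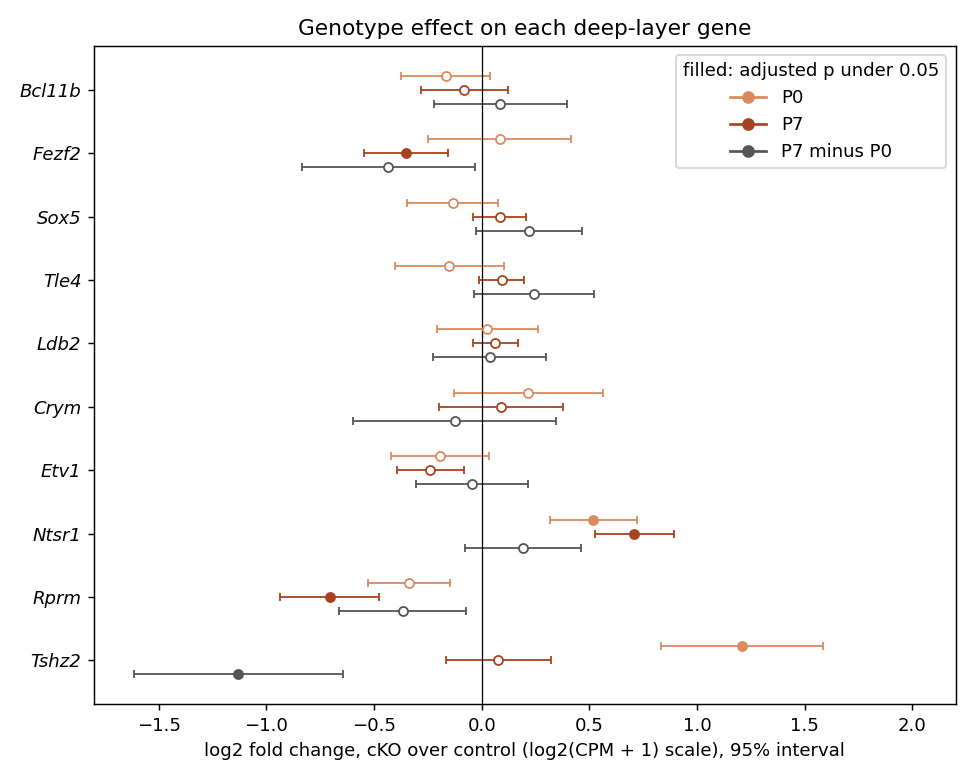
Log2 fold change of cKO over control on the log2(CPM + 1) scale (x axis) for each deep-layer gene (y axis) at P0, at P7 and as the P7 effect minus the P0 effect, with unadjusted 95% intervals as bars and filled points for adjusted p under 0.05. Ntsr1 is filled at both ages, Tshz2 at P0 and for the difference, and Fezf2 and Rprm at P7.

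The genotype effect itself was compared between ages in 1 fit over the 16 libraries. Platform changed with age, so a change of the effect with age cannot be told apart from one with platform. Tshz2 was the 1 member called for a difference, with an effect at P7 minus that at P0 of -1.13 on the log2 scale (SE 0.23, interval -1.62 to -0.65, adjusted p = 0.025). Of the 13444 genes tested for this difference, 0.751% were called. The other 9 were not called, with log2 differences from -0.43 in Fezf2 (SE 0.19, adjusted p = 0.29) and -0.37 in Rprm (SE 0.14, adjusted p = 0.24) to 0.19 in Ntsr1 (SE 0.13, adjusted p = 0.49), 0.22 in Sox5 and 0.24 in Tle4. For Fezf2 and Rprm a call at P7 and none at P0 is therefore not a called difference between the ages. The Tshz2 call was lost without P0 cKO library 3 or 8, P7 control library 45, 46 or 47, or P7 cKO library 41 or 48 (adjusted p from 0.0525 to 0.0713), at a log2 difference between -1.27 and -0.99 over all alternatives. The part of reads from the opposite-strand genes that share stretches with Tshz2 was not tested at either age.

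Between P0 and P7 controls the deep-layer genes moved apart, as a description since platform changed with age and since these controls also enter the genotype comparisons. Rprm fell 3.86-fold, Fezf2 3.54-fold and Ntsr1 2.67-fold, while Tshz2 rose 3.19-fold and Etv1 2.27-fold. Tle4 was 1.53-fold lower at P7. In the fit, 7 of the 10 members were called, 2 higher and 5 lower, where 82.5% of all 13444 genes were called, 35.1% higher and 47.3% lower, so the count of members is no more than that of genes at large. The log2 differences of the 7 were -1.91 for Rprm, -1.76 for Fezf2, -1.38 for Ntsr1, -0.59 for Tle4, -0.27 for Bcl11b, 1.17 for Etv1 and 1.68 for Tshz2, against a median of -0.19 over all genes. The Bcl11b call was lost under 9 of 20 alternatives, with a log2 difference of -0.03 by medians of ratios (adjusted p = 0.78), -0.06 by edgeR and -0.03 by DESeq2, and from -0.25 to -0.22 in limma fits that left out P0 control library 1, 5 or 6 or P7 control library 45 or 46. Bcl11b turned to 0.17 when libraries were set to the level of glutamatergic genes, a scaling that moved the median of all genes to 0.25, the split of all calls from 4723 higher and 6362 lower to 6384 higher and 4340 lower, and also ended the call of Tle4. Sox5 (0.09), Ldb2 (0.12) and Crym (0.27) were not called, but were called higher under that scaling and by medians of ratios, edgeR and DESeq2. By medians of ratios they stood at 0.33, 0.36 and 0.49 (adjusted p = 0.000581, 0.000876 and 0.0098).

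In these terms the P0 cKO level of Tshz2, 149.0 ± 31.9 CPM, lay between the P0 control level of 64.1 ± 15.5 and the P7 control level of 204.5 ± 24.6 CPM. The highest P0 cKO library, at 181.8 CPM, lay above the lowest P7 control, at 174.8 CPM. For Ntsr1, whose level fell with age in controls, the P7 cKO level of 45.7 ± 5.38 CPM lay between the P7 control level of 27.5 ± 1.66 CPM and the P0 control level of 73.4 ± 5.96 CPM. For Rprm, which also fell with age, the P7 cKO level of 15.7 ± 2.05 CPM lay below the control levels of both ages. At P0 the placements differed. The Ntsr1 cKO level of 105.5 ± 7.69 CPM lay above the control levels of both ages. The P0 cKO level of Rprm, 79.8 ± 3.60 CPM, lay between the P0 and P7 control levels, 101.3 ± 8.25 and 26.2 ± 2.97 CPM. These placements set levels from different platforms side by side, so age and platform cannot be told apart in them.

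Levels between genes were compared as CPM per kilobase of exon. In P0 controls Rprm (69.4 ± 5.65) and Ldb2 (67.4 ± 10.9) were highest, followed by Fezf2 (37.7 ± 10.4), Tle4 (34.6 ± 6.43) and Bcl11b (29.1 ± 3.22), each overlapping its neighbour in the order. Below a gap came Ntsr1 (18.7 ± 1.52) and Sox5 (16.4 ± 1.30), which overlapped, then Tshz2 (8.24 ± 1.99) and Crym (6.27 ± 1.27), which overlapped, and last Etv1 (3.13 ± 0.312). In P7 controls Ldb2 stood alone at 72.6 ± 2.73. Tshz2 (26.3 ± 3.17), Bcl11b (24.2 ± 3.14) and Tle4 (22.6 ± 0.525) overlapped in turn, as did Rprm (17.97 ± 2.03) and Sox5 (17.5 ± 0.429) below them. Fezf2 (10.6 ± 0.995) stood apart from both neighbours, and Crym (7.60 ± 1.29), Etv1 (7.11 ± 0.162) and Ntsr1 (7.01 ± 0.423) overlapped at the bottom. Every gene was divided by the joined exons of all its transcripts, which lowers a value where short transcripts dominate. These were longest in Sox5, at 14376 bases, and Etv1, at 13296 bases.

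The ratio of Ntsr1 to Rprm CPM describes these 2 layer 6 markers in each library, and restates their separate values without a test. The ratio ran from 0.597 to 0.839 in P0 controls and from 1.18 to 1.52 in P0 cKO cortex. At P7 it ran from 0.905 to 1.28 in controls and from 2.40 to 3.82 in cKO. The genotypes did not overlap at either age, as neither gene overlapped alone. Against Tle4, another corticothalamic gene, Ntsr1 ran from 0.293 to 0.507 in P0 controls and from 0.569 to 0.646 in cKO, and from 0.188 to 0.226 against 0.301 to 0.371 at P7.

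**Figure D3:**
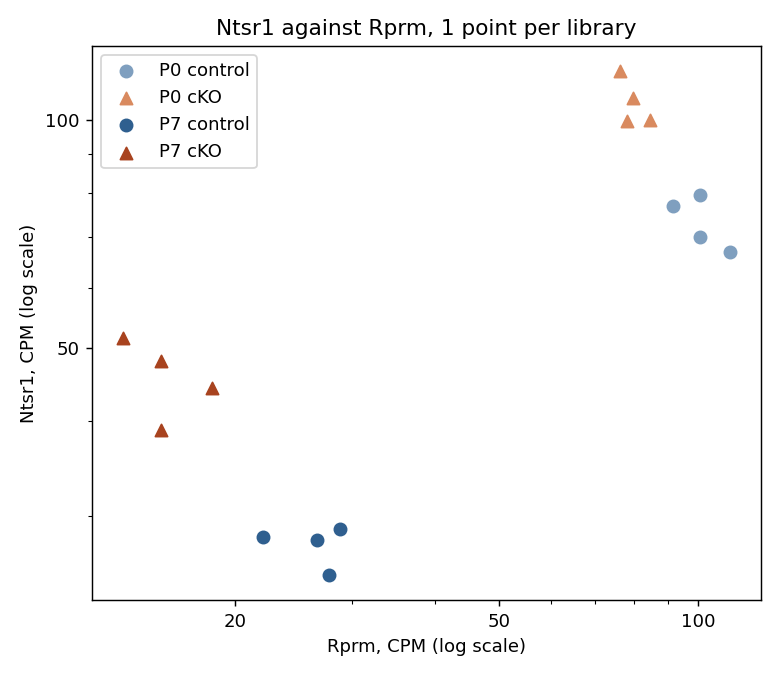
CPM of Ntsr1 (y axis) against CPM of Rprm (x axis), both on log scales, with 1 point per library coloured by group, circles for control and triangles for cKO. At each age the 4 cKO libraries lie above and to the left of the 4 controls, and both genes are lower at P7.

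Other genes of the same neuron types were taken from written lists. Of 12 layer 6 corticothalamic genes tested at P0, 0 were called, with Nfib at -0.28 and Nfia at -0.27 having the smallest p (log2 differences of these nuclear factor I genes, adjusted p = 0.20 each), then Lmo3 at 0.21 and Syt6 at -0.23. At P7, 1 of 13 was called lower, beside 2.05% of all genes. Hs3st4, a heparan sulfate sulfotransferase gene, fell from 178.3 ± 17.0 to 120.5 ± 11.7 CPM (log2 difference -0.56, adjusted p = 0.00049). Zfpm2 (-0.20), Nfib (0.17) and Nfia (-0.09) followed without a call. The list medians were -0.02 at P0 and -0.05 at P7, against 0.01 and 0.03 over all genes.

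Of 14 layer 5 subcerebral genes tested at P0, 1 was called lower, beside 0.0715% of all genes. The formin gene Diaph3 fell from 12.8 ± 3.56 to 5.60 ± 0.431 CPM (log2 difference -1.03, adjusted p = 0.0286). Tcerg1l (0.45), Bhlhe22 (0.45) and Chst8 (0.38) followed without a call. At P7, 3 of 15 were called higher and 2 lower, beside 1.67% and 2.05% of all genes. Bhlhe22, a helix-loop-helix factor, rose from 186.7 ± 19.9 to 265.3 ± 18.2 CPM (0.51, adjusted p = 0.000584), Npr3, a natriuretic peptide receptor gene, from 37.6 ± 3.31 to 49.2 ± 4.65 CPM (0.38, adjusted p = 0.0165), and Tcerg1l by 0.35 on the log2 scale (adjusted p = 0.0468). Diaph3 fell by 0.81, from 16.01 ± 2.21 to 8.66 ± 0.840 CPM (adjusted p = 0.000743), and Nefh, the heavy neurofilament gene of large projection neurons, by 0.64, from 17.6 ± 2.24 to 10.9 ± 1.04 CPM (adjusted p = 0.00291). The list median was -0.11 at P0 and 0.15 at P7, against 0.01 and 0.03 over all genes.

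Near-projecting genes, the class that Tshz2 marks in the adult, held 4 measured genes, and 0 were called at either age. At P0 Fam19a1 stood at 0.53 (adjusted p = 0.18), Trhr at 0.48 (adjusted p = 0.22), Slc17a8 at 0.40 and Lypd1 at -0.02 on the log2 scale, a median of 0.44. At P7 Lypd1 stood at 0.41 (adjusted p = 0.0905), Trhr at 0.43, Slc17a8 at -0.30 and Fam19a1 at 0.04. Slc17a8, Lypd1 and Trhr were low in P0 controls, at means of 0.705, 2.28 and 2.45 CPM, while Fam19a1 averaged 14.5 CPM.

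Among 13 other regulators of projection neuron fate, 0 were called at P0 and 2 at P7. Both were higher, beside 1.67% of all genes called higher at P7. The SRY-box gene Sox11 rose from 406.9 ± 51.3 to 543.4 ± 45.6 CPM (0.42, adjusted p = 0.00631) and the LIM homeobox gene Lhx2 from 73.4 ± 4.57 to 88.5 ± 7.35 CPM (0.26, adjusted p = 0.0459). At P0 the POU gene Pou3f3 (-0.35, adjusted p = 0.0774) and the nuclear receptor gene Nr2f1 (0.40, adjusted p = 0.11) did not overlap between genotypes and were not called, nor was Sox4 (-0.29). Pou3f2 stood at -0.39. At P7 Pou3f3 (-0.22) and Bcl11a (-0.14) were not called.

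**Figure D4:**
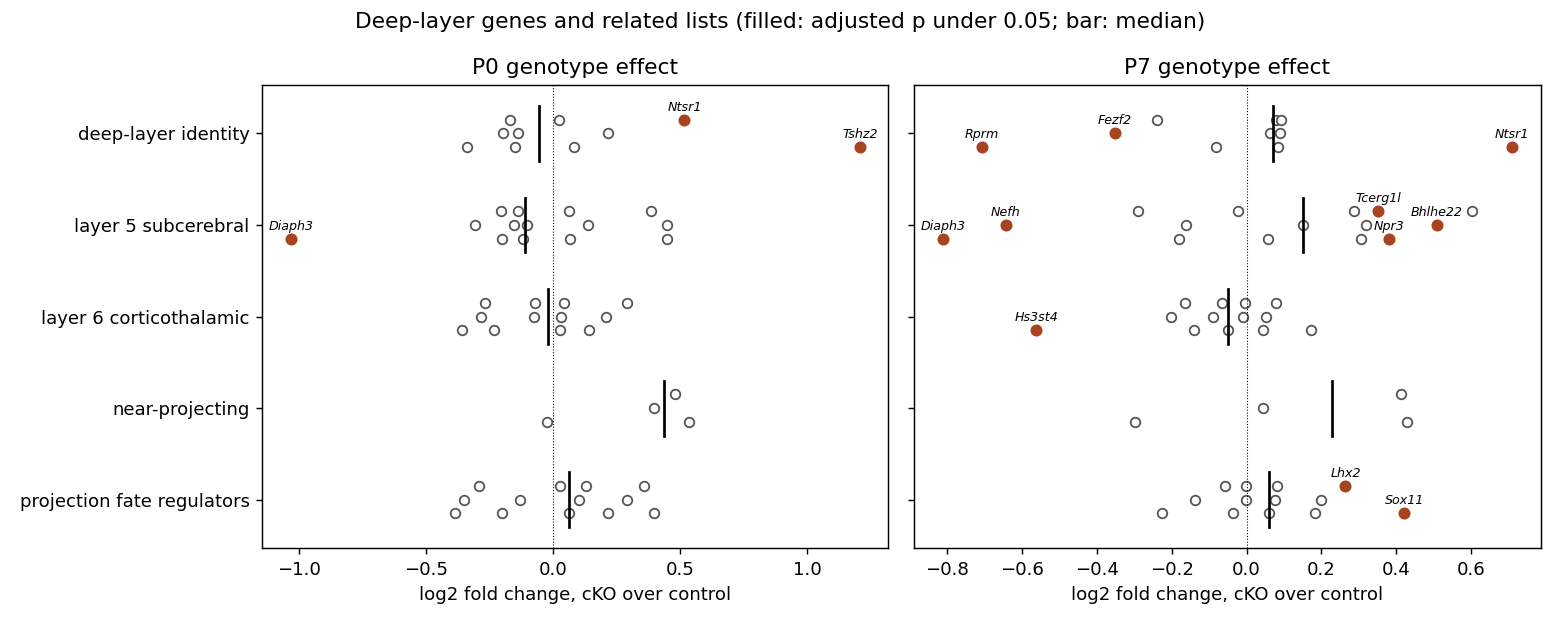
Log2 fold change of cKO over control at P0 (left) and P7 (right), with 1 point per gene for the 10 deep-layer genes and 4 related lists (y axis), filled and named where adjusted p was under 0.05, and the list median as a bar. The deep-layer and layer 5 lists hold filled genes on both sides of 0 at P7.

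The genes whose library-to-library pattern lay closest to each called member were found by the root mean square distance between centred log2(CPM + 1) values over the 8 libraries of an age. At P0 those closest to Tshz2 were Ccdc85a, Synpo2 and Glis3, at distances of 0.209, 0.257 and 0.269 against a median of 0.684 over all genes, with log2 fold changes of 1.07, 1.002 and 1.04. At P0 those closest to Ntsr1 were Kcnu1, Hydin and Islr, at 0.0860 to 0.0878 against a median of 0.321. Kcnu1, Hydin and Islr were not called for genotype at P0 (limma, adjusted p from 0.1551 to 0.1715). Hydin and Islr were low, at means of 1.285 and 1.825 CPM in P0 controls. At P7 Shc4, Rcn1 and Dusp14 were closest to Ntsr1, at 0.0982 to 0.102 (median 0.375), Nudt4, Il1rap and Cdh12 to Rprm, at 0.115 to 0.124 (median 0.422), and Sorl1, Postn and Snx7 to Fezf2, at 0.0717 to 0.0768 (median 0.261).

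Bcl11b is also made by striatal projection neurons, so the level of 16 striatal marker genes was measured in the same libraries. Their summed level ran from 801.7 to 1093 CPM in P0 controls and from 702.4 to 807.1 CPM in P0 cKO, from 575.6 to 1163 CPM in P7 controls and from 661.1 to 1051 CPM in P7 cKO, and no marker was at 0 throughout any group. At P0, 0 of 15 tested markers stood above 0 in log2 difference, and at P7 14 of 16 did, with 0 called at either age. The mean log2 level per library was 4.02 ± 0.611 in P0 controls and 3.57 ± 0.316 in P0 cKO (exact permutation p = 0.29, two-sided, n = 4 each), and 3.72 ± 0.665 and 4.16 ± 0.257 at P7 (exact p = 0.23). P0 control library 2, with the lowest Bcl11b of its group, also had the lowest striatal level of its group, 3.12 against 4.13 to 4.42. P7 control library 43, with the highest Bcl11b of its group, had the highest, 4.71 against 3.31 to 3.44. The cKO groups did not follow this order. P0 cKO library 7 had the lowest Bcl11b of its group, 187.2 CPM, and the highest striatal level, 3.88. P7 cKO library 41 had the highest striatal level of its group, 4.47, with Bcl11b at 190.3 CPM against 209.1 CPM in library 48.

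With the striatal level as a covariate the Bcl11b difference was -0.10 in place of -0.17 at P0 and -0.20 in place of -0.08 at P7, called at neither age. Bcl11b was not alone in moving. At P0 Crym stood at -0.0028 in place of 0.22, Tle4 at -0.28 in place of -0.15 and Ldb2 at 0.17 in place of 0.03, also without a call. The P0 difference of Ntsr1 was 0.51 and that of Tshz2 1.13, both still called. At P7 Ntsr1 (0.66) and Rprm (-0.75) were called with the covariate. Fezf2 was not, at a log2 difference of -0.32 (SE 0.10) with the covariate and -0.35 (SE 0.09) without it. The part of the striatal level in these differences was not tested otherwise. Thalamic markers summed to between 84.0 and 117.8 CPM in newborns and to between 134.1 and 194.7 CPM at P7, and overlapped between genotypes, with 0 of 7 called at either age. Hippocampal markers overlapped likewise, with 0 of 6 called. The thalamic factor gene Gbx2 was at 0 in the 4 P7 controls. Of the GABAergic interneuron markers, 0 of 13 were called at P0 and 2 of 14 at P7, both higher, beside 1.67% of all genes called higher at P7. Npy (neuropeptide Y) rose from 29.4 ± 3.60 to 39.0 ± 5.02 CPM (adjusted p = 0.0473). Calb2 (calretinin) rose from 11.3 ± 2.17 to 19.8 ± 6.43 CPM (adjusted p = 0.0276). Npy and Calb2 were named after their values were seen.

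**Figure D5:**
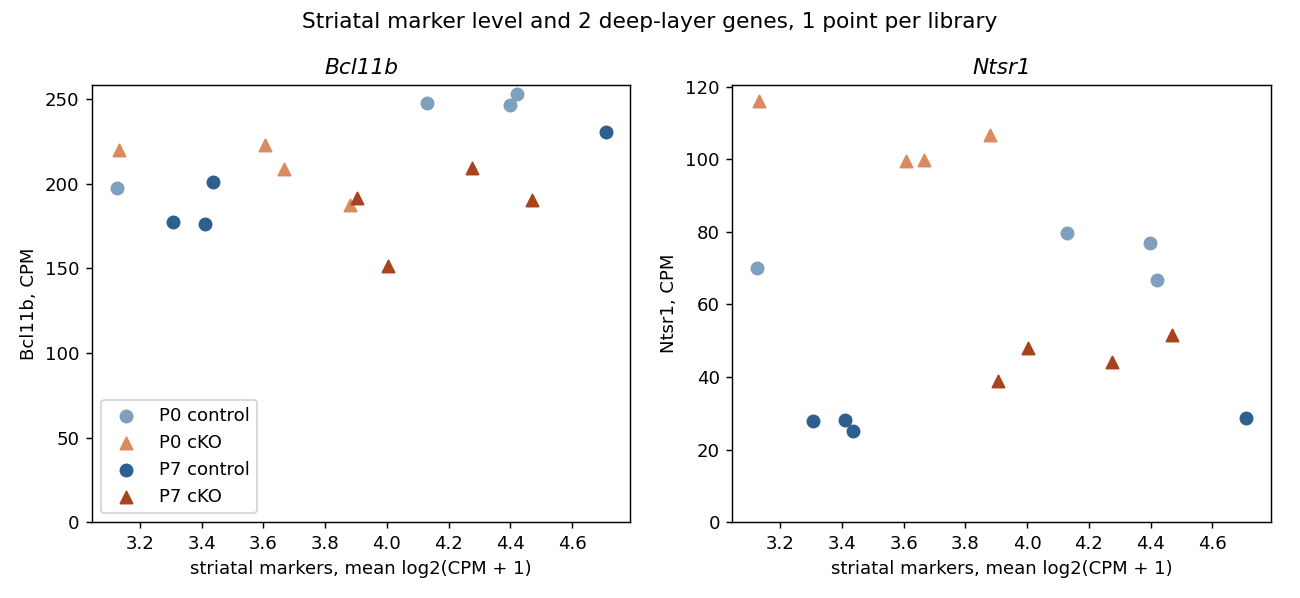
CPM of Bcl11b (left) and Ntsr1 (right) on the y axis against the mean log2(CPM + 1) of 16 striatal markers on the x axis, with 1 point per library coloured by group. P0 control library 2 lies apart from its group at 3.12 and P7 control library 43 at 4.71, and the Ntsr1 groups of each age stay separate over the shared range.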

How the data were processed

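PolyA RNA of right-hemisphere cortex was sequenced as single-end reads, P0 libraries at 50 bp on a BGISEQ instrument and P7 libraries at 75 bp on an Illumina NextSeq, per the labels. The deposited table holds CPM values that the authors made, and STAR, HTSeq and edgeR with builds mm10 and GRCm38 are named in the submitters' processing notes. Their versions, annotation and strand setting were not given in the sources used here. Divided by the CPM of 1 read, 100% of values were whole to within 0.01 read, and the genes listed made up 95.9% to 96.6% of a library's total, so that some genes were removed after scaling. The deposited table is labelled as without X and Y, and whether genes of these chromosomes make up the missing share was not tested. Genes at 0 differed between ages: 113 genes at 0 in every P0 library averaged at least 10 CPM at P7, against 2 the other way, none of them among the 10 members. Whether the ages were counted with different annotations was not tested.

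The 8 libraries of an age were fitted with limma 3.58.1 (R 4.3.3) to log2 of CPM plus a pseudocount of 1, with trended eBayes, keeping genes that reached 1 CPM in 4 or more libraries. The difference between ages and the age contrast came from 1 fit over 16 libraries. An exact permutation test, two-sided, over 70 assignments was used for single values. The fits were tested on simulated data. The pseudocount understates changes of low genes. Alternatives changed the pseudocount (0.1 or 0.5), the filter, the scaling, the spread estimate, the samples or the test. On recovered reads edgeR 4.0.16 called 30 genes at P0 and 463 at P7, and DESeq2 1.42.0 called 429 and 603, against 32 and 477 with limma.

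The members, gene lists and tests were chosen with earlier results of these data known. Named genes were all members, Foxp1, up to 4 genes with the smallest p at each age from each related list, and the 3 nearest genes to each called member. Tcerg1l at P7 was added after its value was seen. Positions and exon lengths are from GENCODE M21 (GRCm38), matched by symbol. Upstream sequences are from RefSeq (GRCm38.p6), where 8 of 10 members matched and Ldb2 and Crym did not.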

Additional observations from a re-analysis of the deposited data

Results flagged for a closer look

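Bcl11b in P0 control library 2 stood far below the other libraries of its group, at 197.3 CPM against 246.4 to 253.3 CPM, a gap of 0.877 of the group's range. It was the 1 value so placed among 40 groups of 4 libraries examined for the 10 genes, where chance gives about 1 in 20. Without that library the P0 log2 difference of Bcl11b was -0.25 (limma, adjusted p = 0.22), in place of -0.17.

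The genotype effect on Tshz2 differed between the ages by -1.13 on the log2 scale (limma interaction, adjusted p = 0.025), with cKO above control in 4 of 4 libraries at P0 and groups that overlapped at P7. Age and platform cannot be told apart in this difference.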

How the results depend on the processing

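Over 910 recomputed values of single members, 833 kept direction and side of the threshold, 23 passed it newly, 36 no longer passed it and 18 changed sign. Of the 10 genes, 2 were called at P0: the count was 0 with no filter and 1 with libraries set to the glutamatergic level, and 0 to 2 leaving out 1 library. With P0 control libraries 2 and 6 left out, array weights, DESeq2 or 1 fit over 16 libraries it was 3, with Rprm added. At P7 the count of 3 ran from 2 to 4. For the difference between ages the count of 1 was 0 with no filter and 0 to 1 leaving out 1 library. In the age contrast the count of 7 ran from 6 to 9. Over all genes the P0 calls numbered 7 with no filter, 124 with array weights, 174 with the striatal covariate, 118 without control libraries 2 and 6, 429 with DESeq2 and 794 in the 16-library fit, against 32. At P7 they numbered 269 with glutamatergic scaling and 175 in the 16-library fit, against 477, and 325 with no filter. For the difference they numbered 54 with no filter, 45 with glutamatergic scaling, 194 with array weights, 291 with DESeq2 and 175 without the pair of controls, against 101. Leaving out 1 library gave 4 (without cKO 3 or 8) to 136 (without control 5) at P0, 281 (without control 46) to 496 at P7, and 45 (without P0 cKO 3) to 361 (without P0 control 5) for the difference.

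Small differences that were not called changed sign. At P0 Ldb2 was -0.017 with array weights, -0.0031 with DESeq2 and -0.080 without control libraries 2 and 6, Fezf2 was -0.21 without them, and Crym was -0.0028 with the striatal covariate. At P7, with array weights, Crym was -0.035 and Tshz2 -0.018. Leaving out 1 library gave -0.017 to 0.25 for Fezf2 and -0.093 to 0.088 for Ldb2 at P0, -0.14 to 0.013 for Bcl11b and -0.031 to 0.18 for Crym at P7, and -0.026 to 0.16 for Ldb2 and -0.10 to 0.025 for Etv1 in the difference between ages. Bcl11b, called lower in the age contrast, turned to 0.17 with glutamatergic scaling. Leaving out P0 controls 2 and 6 was not run for P7, whose fit holds no P0 library. The cause was not tested. No paired analysis was possible because the groups compared share no replicate numbers in the labels. Depth limits the P7 values of Rprm most, with 182 reads in its lowest library.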
